A study of Mus musculus with 6 samples.

Results

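The transporters that endothelial barriers are known for were followed in cells of the mouse sciatic nerve of newborn mice (P1, postnatal day 1) and young adults (P60, postnatal day 60). They were 10 genes taken by symbol from the 41605 genes of the count matrices (Slc2a1, Slco1a4, Slco2b1, Abcb1a, Abcg2, Slc7a5, Slc7a1, Slc16a1, Mfsd2a and Tfrc) for what their products are known to carry. Each age had 3 libraries of single cells, prepared with the 10x Chromium 3′ chemistry, which counts each captured RNA molecule by its unique molecular identifier (UMI). All mice of both ages carried P0Cre, which turns on a YFP reporter (Rosa26-loxPstoploxP-YFP) in Schwann cells, and βAct-DsRed, a red fluorescent protein under an actin promoter, on C57bl/6J. Animals of both sexes were pooled in each library. They were not perfused, and DsRed-positive cells were sorted. At P1 a portion of the cells positive for both DsRed and YFP was also sorted away, so the sort fixed how many Schwann cells the P1 libraries hold. The labels name the samples as biological replicates without saying how animals were divided among them, so a p-value here measures the spread between libraries.

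The files held 11827 cell barcodes at P1 and 12683 at P60, of which 11735 and 12602 had between 500 and 5000 detected genes and were kept. The libraries held 20203440 to 30334608 UMIs each, and the median UMI count of a kept cell ran from 3627 in P60 replicate 3 to 6840 in P1 replicate 3. In P60 replicate 3, 16.2% of cells had over 10% of their UMIs from mitochondrial genes, against 2.97% and 4.84% in the other P60 libraries and 9.56% to 13.6% at P1. Any 2 libraries shared 14 to 33 barcodes. Cells were clustered separately at each age without the transporter genes, and classes were named from marker lists. Clusters that also held markers of another class were called mixed. They had 352 cells at P1 and 290 at P60 and are not counted among the classes below. Endothelial cells numbered 725 at P1 (209 to 272 per library) and 1813 at P60 (450 to 714 per library). The perineurial cells of P60 formed clusters of their own with 2426 cells, and no perineurial cluster was found at P1 under any clustering tried. At P60 the endothelial cells fell into a cluster of 986 cells led by Cldn5, Mal, Slco1a4, Ptn and Car4 and a cluster of 827 cells led by Ccl21a, Fabp4, Plvap, Lrg1 and Aqp1, called the Cldn5-led and the Plvap-led cluster below.

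The blood-nerve barrier keeps the fluid around axons separate from the blood. It has an inner part, the tight-junctioned endothelium of vessels inside the endoneurium, and an outer part, the layered perineurial cells that wrap each fascicle, whereas vessels of the epineurium are known to be leakier. Because tight junctions close the route between cells, nutrients and signals cross through carriers in the membrane, and ATP-driven pumps return many drugs and lipophilic compounds to the blood. Slc2a1 (GLUT1) carries glucose and Slc16a1 (MCT1) carries lactate and other monocarboxylates. Slc7a5 (LAT1) carries large neutral amino acids and Slc7a1 (CAT1) cationic ones. Mfsd2a imports lysophospholipids that carry omega-3 fatty acids. Slco1a4 and Slco2b1 carry organic anions, among them conjugated steroids and thyroid hormones. Abcb1a (P-glycoprotein) and Abcg2 are efflux pumps, and Tfrc, the transferrin receptor, takes up iron.

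Positions are those of the mouse assembly GRCm38. Slc2a1 (chr4:119108711-119137983, plus strand) and Mfsd2a (chr4:122946850-122961188, minus strand) are both on chromosome 4, Slco1a4 (chr6:141805440-141856199, minus strand) and Abcg2 (chr6:58584523-58695676, plus strand) on chromosome 6, and Abcb1a (chr5:8660077-8748575, plus strand) and Slc7a1 (chr5:148327410-148399904, minus strand) on chromosome 5. Slc16a1 is at chr3:104638668-104658462 on the plus strand, Slco2b1 at chr7:99657804-99711340 on the minus strand, Slc7a5 at chr8:121881150-121907694 on the minus strand and Tfrc at chr16:32608920-32632794 on the plus strand. No exon of another gene overlapped theirs on the same strand, whereas Slc2a1, Slco2b1 and Abcb1a overlap antisense genes.

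The promoters of 3 of the genes are shown for the patterns described below. Slco1a4, Mfsd2a and Slc2a1 were all lower in the Plvap-led than in the Cldn5-led endothelial cluster of P60, and Slc2a1 was shared with perineurial cells. Each promoter runs from 250 bases before to 50 bases after the RefSeq start (GRCm38.p6). Capitals mark matches on either strand to CTTTGA, a core of TCF/LEF sites, to ACGTG, a core of hypoxia response elements, and to GGGCGG, the GC box.
Slco1a4 (chr6:141856171-141856470, minus strand): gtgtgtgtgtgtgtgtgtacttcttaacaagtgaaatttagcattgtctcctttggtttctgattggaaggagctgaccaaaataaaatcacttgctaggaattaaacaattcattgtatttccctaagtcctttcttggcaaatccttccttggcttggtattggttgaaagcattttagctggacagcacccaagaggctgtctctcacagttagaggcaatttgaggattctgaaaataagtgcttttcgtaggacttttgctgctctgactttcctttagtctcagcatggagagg
Mfsd2a (chr4:122961139-122961438, minus strand): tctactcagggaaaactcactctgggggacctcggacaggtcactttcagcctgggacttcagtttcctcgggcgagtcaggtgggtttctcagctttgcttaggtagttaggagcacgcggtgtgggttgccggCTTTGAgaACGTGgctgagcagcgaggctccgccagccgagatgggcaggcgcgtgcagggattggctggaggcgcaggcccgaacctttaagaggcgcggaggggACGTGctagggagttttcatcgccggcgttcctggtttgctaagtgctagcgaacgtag
Slc2a1 (chr4:119108495-119108794, plus strand): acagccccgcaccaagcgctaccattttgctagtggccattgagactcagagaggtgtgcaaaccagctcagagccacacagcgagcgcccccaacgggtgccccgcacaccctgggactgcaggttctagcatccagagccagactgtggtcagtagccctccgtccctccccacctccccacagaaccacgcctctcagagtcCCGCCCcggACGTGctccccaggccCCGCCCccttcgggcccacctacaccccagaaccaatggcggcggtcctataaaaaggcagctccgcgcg
Slco1a4 held none of the 3 letter runs in this window. Mfsd2a held CTTTGA at -115 and ACGTG at -107 and -9 from the start, and Slc2a1 held ACGTG at -36 and GGGCGG on the other strand at -45 and -20. Among 32851 mouse promoters of this length, CTTTGA occurred in 16%, ACGTG in 19.6% and GGGCGG in 35.7%, the motifs not overlapping one another. A match is a description of the sequence and not a site of binding. In all, 9 of the 10 genes matched a RefSeq promoter, Slc7a5 being the exception.

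All 10 transporters were higher at P60 than at P1 in endothelial cells when UMIs were summed per library, with the smallest difference in Slco2b1 and the largest in Slco1a4. The question was which parts of the transport repertoire differ between newborn and adult nerve endothelium. Levels are given in CPM, the UMIs of a gene scaled to a common total of UMIs in the class, and differences as log2 of P60 over P1 from edgeR's quasi-likelihood test across all genes, with Benjamini-Hochberg adjustment and a threshold of 0.05. All 10 passed, against 40.0% of the 10903 genes tested (21.1% higher at P60), and their median log2 difference was 3.16 against 0.02 over all genes. In each of the 10 the ranges of P1 and P60 libraries did not overlap, as held for 52.7% of all genes.

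Of the fuel carriers, Slc2a1 was at 123, 100.2 and 92.3 CPM in the P1 libraries and at 1146, 1085 and 1017 CPM at P60. Its lowest P60 library was thus far above its highest P1 library, and the log2 difference was 3.38 (SE 0.14, edgeR adjusted p = 1.52e-08). Slc16a1 was low at both ages, at 6.63, 3.08 and 8.12 CPM and then 13.3, 25.8 and 19.7 CPM (log2 difference 1.75, SE 0.35, edgeR adjusted p = 0.00178). The amino acid carrier Slc7a5 had 44.8, 73.5 and 54.3 CPM at P1 and 228, 212 and 216 CPM at P60 (log2 difference 1.94, SE 0.16, edgeR adjusted p = 2.62e-06). The cationic carrier Slc7a1 had 9.95, 13.9 and 12.7 CPM at P1 and 147, 160 and 192 CPM at P60 (3.78, SE 0.18, edgeR adjusted p = 2.72e-08). For both amino acid carriers the P60 libraries lay well above those of P1, and Slc7a1 had the larger change.

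Mfsd2a, a lipid carrier known from the blood-brain barrier, was at 6.08, 2.57 and 3.04 CPM at P1 and 286, 265 and 176 CPM at P60. This was the next largest change after Slco1a4, at a log2 difference of 5.98 (SE 0.30, edgeR adjusted p = 3.81e-08). Slco1a4 itself was at 4.97, 4.62 and 1.01 CPM at P1 and 819, 778 and 799 CPM at P60. Its log2 difference was 7.83 (SE 0.26, edgeR adjusted p = 4.52e-09), and the P60 libraries were closer to each other than those of any other member in relative terms. The related anion carrier Slco2b1 was at 36.5, 37 and 32 CPM at P1 and at 69.4, 67.4 and 78.8 CPM at P60, the smallest difference of the 10 (1.05, SE 0.14, edgeR adjusted p = 9.96e-05).

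Both efflux pumps rose. Abcb1a was at 45.3, 42.1 and 44.1 CPM at P1 and at 539, 584 and 769 CPM at P60 (log2 difference 3.86, SE 0.16, edgeR adjusted p = 1.38e-08). Abcg2, already among the better measured members at P1 with 254, 287 and 283 CPM, was at 1454, 1537 and 1171 CPM at P60 (2.35, SE 0.13, edgeR adjusted p = 1.06e-07). P60 replicate 3, the library with the shallowest cells, was the highest for Abcb1a and the lowest for Abcg2 and Mfsd2a. Tfrc stayed near the detection limit, with 5 UMIs in all P1 endothelial cells, 0, 1.54 and 1.01 CPM at P1 and 6.16, 6.94 and 7.58 CPM at P60 (2.94, SE 0.52, edgeR adjusted p = 0.000825). All 10 stayed called whichever library was left out.

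**Figure D1:**
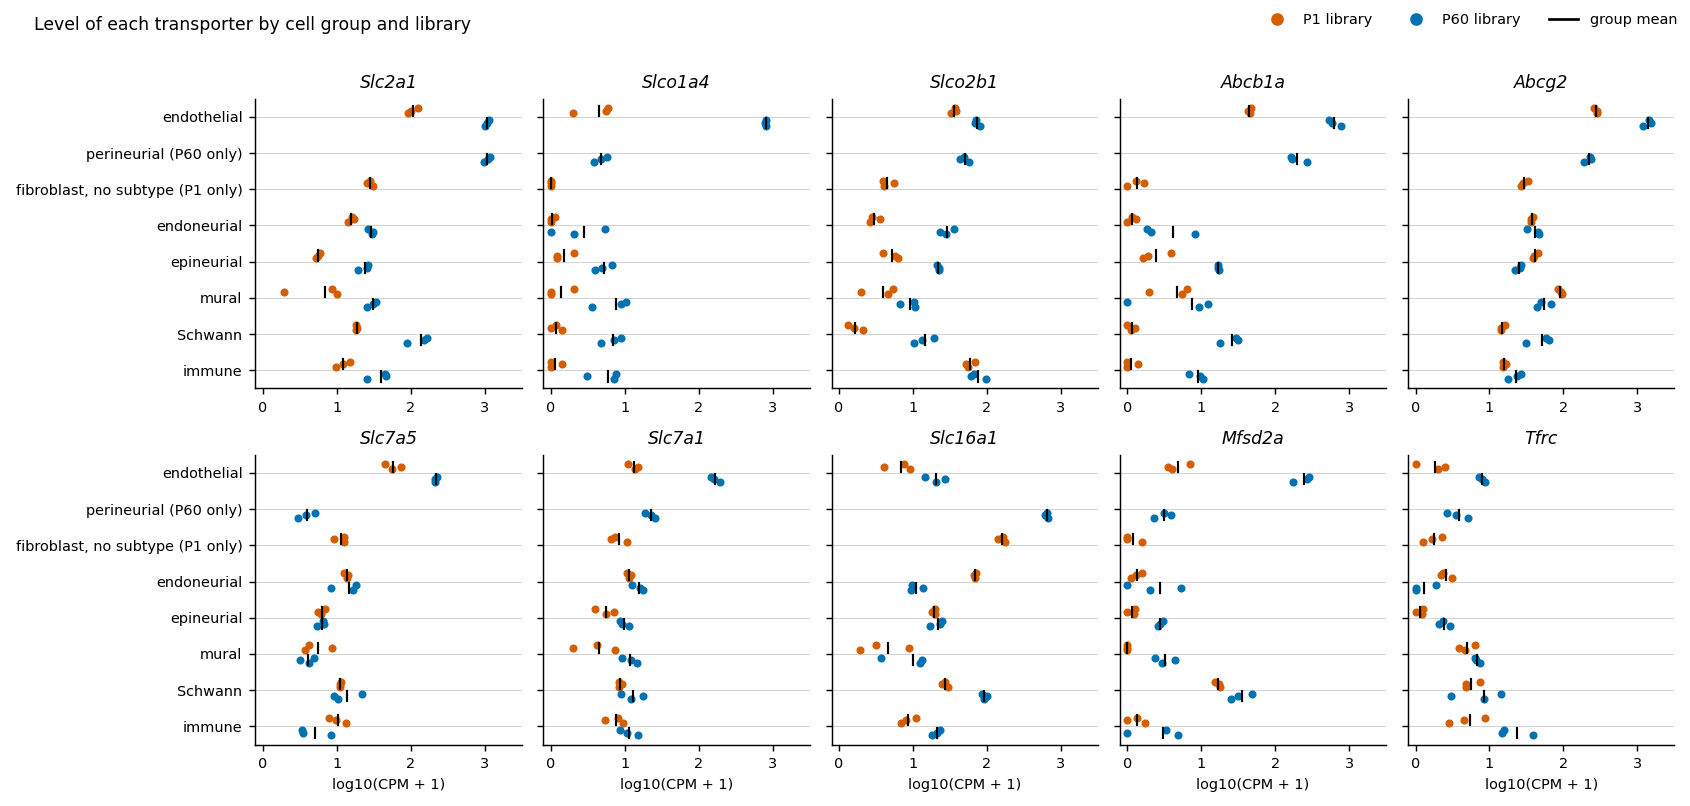
Level of each transporter in CPM of class UMIs on a log axis, in every class and library at P1 and P60; points are libraries. Endothelial cells are at 1082 ± 64.4 CPM of Slc2a1 at P60 (SD, n = 3) and perineurial cells at 1091 ± 93.1, while Slc16a1 is at 638 ± 30.9 CPM in perineurial cells and 19.6 ± 6.22 in endothelial cells.

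The share of endothelial cells with a UMI of each gene moved the same way. Each cell was thinned to 1500 UMIs so that depth could not set the share. Abcg2 was found in 32.4% ± 3.90 of cells at P1 and in 74.8% ± 3.73 at P60 (SD, n = 3). Slc2a1 was found in 13.2% ± 1.95 and 49.1% ± 1.35, Abcb1a in 6.90% ± 1.36 and 44.8% ± 7.73, and Slco1a4 in 0.490% ± 0.849 and 42.5% ± 2.07. In the other P60 classes, the mixed clusters left out, 0.25% to 1.19% of cells had a Slco1a4 UMI at the same depth. The part of free RNA in these shares was not tested. Mfsd2a went from 0.259% to 21.4% of cells and Slc7a1 from 1.48% to 15.9%. Tfrc was not found in any of the 725 thinned P1 cells, which allows a share of up to 0.508% (exact 95% bound, counting error only), and was found in 0.959% of P60 cells. In all 10 genes every P60 library was above every P1 library, which gives an exact two-sided permutation p of 0.1, the smallest that 3 against 3 libraries allow and 0.1 after Benjamini-Hochberg adjustment over the 10. No share could therefore pass 0.05. After thinning to 1000 UMIs the exact permutation p was 0.2 for Slco2b1 (5.30% at P1 and 6.68% at P60) and for Slc16a1, and without thinning it was 0.2 for Slc16a1.

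**Figure D2:**
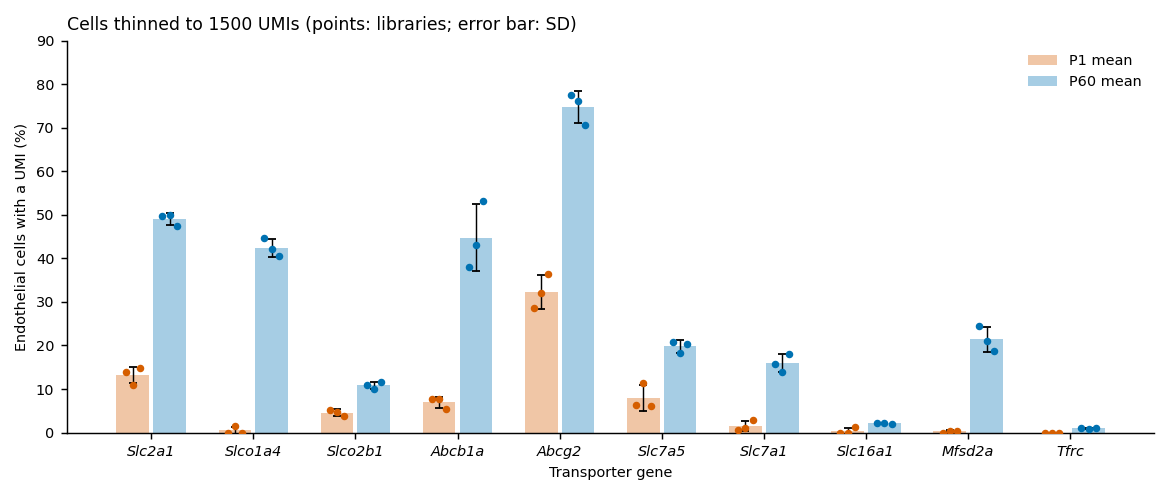
Percent of endothelial cells with at least 1 UMI of each transporter after thinning every cell to 1500 UMIs; bars are means of 3 libraries, points are libraries and error bars are SD. Slc2a1 goes from 13.2% to 49.1% and Slco1a4 from 0.490% to 42.5%, while Slc16a1 reaches 2.12% and Tfrc 0.959% at P60.

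In a class that mixes vessel types, more cells of one type and more RNA per cell cannot be told apart, and markers of other cells moved with age in the endothelial class. The 9 endothelial markers summed to 7363 to 7689 CPM at P1 and 8178 to 10014 CPM at P60. The 9 mural markers, none at 0, summed to 151 to 385 CPM at P1 and 1397 to 1987 CPM at P60, whereas mural cells of P60 held at most 53.4 ± 12.5 CPM of any of the 10 transporters (Abcg2). The 6 lymphatic markers summed to 66.3 to 352 CPM at P1 and 2570 to 3609 CPM at P60. The 9 Schwann markers summed to 470.2 to 742 CPM at P1 and 65.9 to 110 CPM at P60, and the 8 perineurial markers to 20.6 to 25.9 and 149.8 to 235 CPM, Kcnj13 being at 0 at P1. Cells with at least 2 lymphatic markers were 3.31% of P1 endothelial cells, 2.13% of the Cldn5-led cluster and 15.4% of the Plvap-led cluster. The part of these other RNAs in the transporter differences was not tested.

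Within the P60 endothelium most of the transporters sat in the Cldn5-led cluster. These values describe clusters made from the same cells and carry no test, and Slco1a4 is itself among the genes that lead that cluster. Slco1a4 was at 1254, 1187 and 1304 CPM in the Cldn5-led and at 6.86, 7.15 and 10.9 CPM in the Plvap-led cluster. Slc2a1 was at 1726, 1603 and 1624 CPM against 61.8, 107 and 68.4 CPM. Mfsd2a had 437, 401 and 287 CPM against 4.90, 7.86 and 0.777 CPM. In the Plvap-led cluster the ranges of Slc2a1 and Mfsd2a overlapped those of the newborn endothelium. Slc7a5 was at 347, 320 and 351 CPM against 5.88, 9.29 and 4.66 CPM, and in the Plvap-led cluster it lay below every P1 library. Slc7a1 had 221, 241 and 301 CPM against 10.8, 5.72 and 21 CPM. The efflux pumps were less unequal, with Abcb1a at 773, 834 and 1168 CPM against 101, 112 and 146 CPM, and Abcg2 at 1887, 2007 and 1600 CPM against 646, 651 and 500.2 CPM. Both pumps were thus higher in the Plvap-led cluster than in the P1 endothelium.

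Slco2b1 and Slc16a1 ran the other way. Slco2b1 was at 58.8, 54.3 and 72.1 CPM in the Cldn5-led and 89.2, 92.2 and 89.3 CPM in the Plvap-led cluster, and Slc16a1 was at 4.20, 9.11 and 10.9 CPM against 30.4, 57.2 and 33.4 CPM. In both genes the 3 libraries of one cluster lay above the 3 of the other. Tfrc was at 8.40, 9.86 and 11.4 CPM against 1.96, 1.43 and 1.55 CPM.

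**Figure D3:**
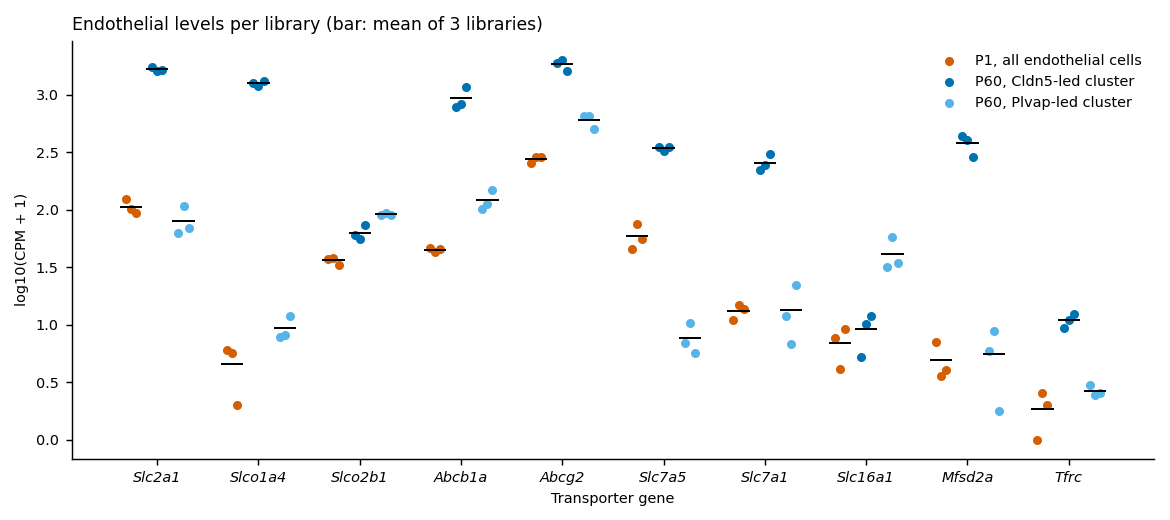
Level of each transporter in CPM on a log axis in the P1 endothelium and in the Cldn5-led and Plvap-led clusters of the P60 endothelium; points are libraries. Slc2a1 stands at 1603 to 1726 CPM in the Cldn5-led cluster and at 61.8 to 107 CPM in the Plvap-led cluster, while Slco2b1 and Slc16a1 are higher in the Plvap-led cluster.

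The same endothelial cells were next divided by Cd300lg, a membrane glycoprotein of endothelial cells. Cells with at least 1 Cd300lg UMI after thinning to 1500 UMIs were called Cd300lg-positive. They were 140 of 725 endothelial cells at P1 (19.3%) and 405 of 1813 at P60 (22.3%), where 1397 were negative and 11 were too shallow to be placed. Cd300lg was at 458 CPM in the Plvap-led and 42.2 CPM in the Cldn5-led cluster, and a cell without a Cd300lg UMI may still express the gene. Of the positive P60 cells 84.4% were in the Plvap-led cluster, and of the negative cells 65.9% were in the Cldn5-led cluster. Median UMIs per cell were 3763 in positive and 4922 in negative cells at P60, and 6955 and 6210 at P1.

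At P60, Cd300lg-positive cells held less RNA of 7 transporters and more of 1. In the fit with library as a block, 8 of the 10 passed, against 10.3% of the 9804 genes tested (5.37% lower and 4.98% higher), and the median log2 difference of the 10 was -1.44 against 0.01 over all genes. Slc2a1, the glucose carrier, was at 320, 372 and 392 CPM in positive cells and 1323, 1249 and 1144 CPM in negative cells (log2 difference -1.79, SE 0.09, edgeR adjusted p = 9.47e-10). Slc7a5 was at 61.8, 60.7 and 83.4 CPM against 264, 247 and 242 CPM (-1.90, SE 0.13), and Slco1a4 at 189, 293 and 339 CPM against 955, 890 and 893 CPM (-1.76, SE 0.12). No library of the positive cells reached the lowest library of the negative cells in these 3 genes. Mfsd2a (-1.59, SE 0.11), Slc7a1 (-1.49, SE 0.13), Abcb1a (-1.40, SE 0.10) and Abcg2 (-0.67, SE 0.07) were lower as well. Slc16a1 was the member that was higher, at 38.6, 48.8 and 32.6 CPM in positive and 7.90, 20.4 and 17.2 CPM in negative cells (1.37, SE 0.26, edgeR adjusted p = 0.00181). Slco2b1 did not pass although its libraries did not overlap, at 81.1, 89.7 and 92.5 CPM against 66.9, 62.3 and 76.5 CPM (0.35, edgeR adjusted p = 0.132), and neither did Tfrc (-0.77, edgeR adjusted p = 0.489). The lymphatic markers summed to 3870 to 5550 CPM in positive and 1910 to 3190 CPM in negative cells, and without the cells that had at least 2 of them the same number of members, 8, was called. The 4 adipocyte markers, none at 0, summed to 79.2 to 104 CPM in positive and 3.05 to 18.3 CPM in negative cells, and their part in the result was not tested.

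**Figure D4:**
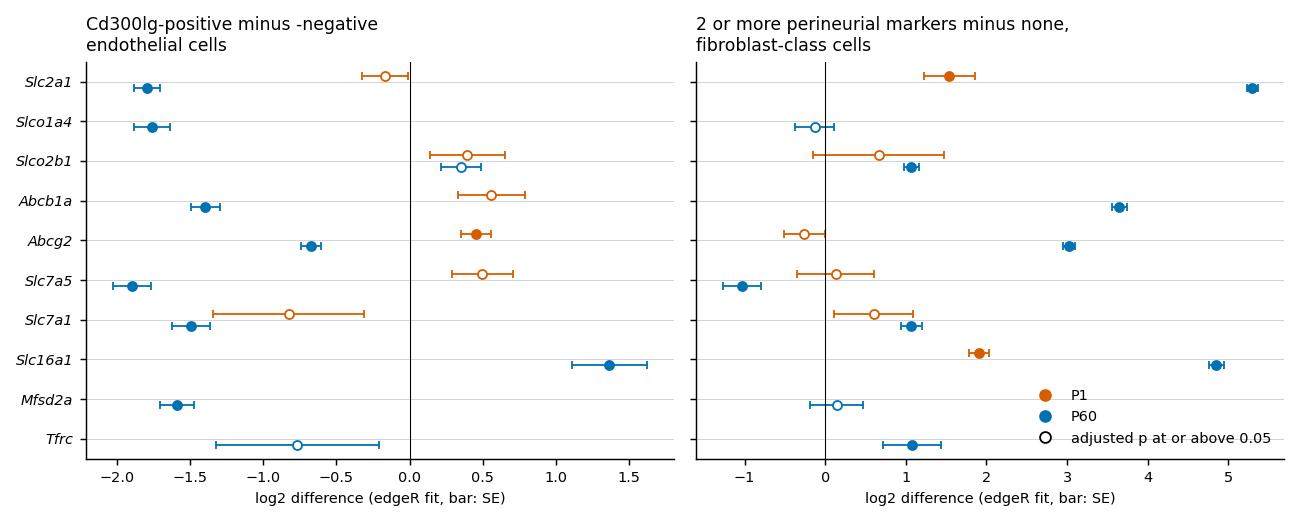
Comparison of each transporter between Cd300lg-positive and Cd300lg-negative endothelial cells, and between cells with 2 or more perineurial markers and cells with none, at P1 and P60. Slc2a1 is at 320 to 392 CPM in Cd300lg-positive and 1144 to 1323 CPM in Cd300lg-negative cells at P60, and at 993 to 1170 CPM in cells with perineurial markers at P60.

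At P1 the division by Cd300lg went with little difference in transporters. Cd300lg itself was at 372 CPM in positive and 104 CPM in negative cells at P1, against 757 and 69.6 CPM at P60. The division was therefore weaker at P1 than at P60. Only 6 of the 10 had enough counts to be tested, 1 was called against 2.72% of 8079 genes (0.866% higher), and 3 had an unadjusted p under 0.05. Abcg2 was higher in positive cells, at 287, 369 and 389 CPM against 246, 269 and 258 CPM (0.45, SE 0.10, edgeR adjusted p = 0.0104), the opposite direction from P60. This call was lost without P1 replicate 2 (edgeR adjusted p = 0.0998) and without P1 replicate 3 (edgeR adjusted p = 0.210). Slc2a1 was at 121, 96.4 and 67.1 CPM against 124, 101 and 98.2 CPM (-0.17), and Slc7a5 at 50.6, 121 and 53.7 CPM against 43.3, 62.5 and 54.4 CPM (0.50), with overlapping libraries in both.

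The difference between the ages was then tested as an interaction of Cd300lg with age. It was called for 4 of the 9 members tested, against 4.08% of 9691 genes (1.70% lower). The Cd300lg difference was lower at P60 than at P1 by 2.41 on the log2 scale for Slc7a5 (SE 0.26), by 1.98 for Abcb1a (SE 0.25), by 1.64 for Slc2a1 (SE 0.18) and by 1.15 for Abcg2 (SE 0.13). Slc16a1 had 2.59 in the other direction and did not pass (edgeR adjusted p = 0.0747). For Slco1a4 and Mfsd2a the P1 cells held too few UMIs for the interaction to be read. The interaction sets a weaker division by Cd300lg at P1 against a stronger one at P60, and the part of this was not tested.

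Perineurial cells of P60 carried a shorter set of the transporters. Slc2a1 was at 1170, 1115 and 989 CPM, a range that overlapped that of the endothelial class, so the order of these classes was not resolved. Slc16a1 was at 650, 603 and 661 CPM, and Schwann cells came next at 91.0 ± 7.05 CPM (SD, n = 3). Abcb1a was at 160, 165 and 265 CPM and Abcg2 at 230, 236 and 190 CPM, in both cases below the endothelial class in every library. Slco2b1 was at 48.9 ± 7.24 CPM, below the 71.9 ± 6.09 CPM of endothelial and above the 28.2 ± 6.39 CPM of endoneurial cells, with no overlap of libraries. The remaining members were low in perineurial cells, with Slc7a1 at 21.4 ± 3.19, Slc7a5 at 2.95 ± 1.02, Slco1a4 at 3.77 ± 0.893, Mfsd2a at 2.14 ± 0.816 and Tfrc at 2.82 ± 1.27 CPM. Of the perineurial clusters, the larger one held Slc2a1 at 1140, Slc16a1 at 685 and Abcb1a at 217 CPM and the smaller one 718, 282 and 50 CPM. In the thinned cells a Slc2a1 UMI was found in 73.6% of perineurial cells at P60 and a Slc16a1 UMI in 54.5%.

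Because no perineurial cluster stood out at P1, cells of the fibroblast class were divided at both ages by 6 perineurial markers (Itgb4, Cldn1, Msln, Krt19, Lypd2 and Perp) into those with at least 2 and those with none. At P60 these were 2285 and 4801 cells. At P1 they were 132 and 4672 cells, of which 126 had exactly 2 markers. Cells with 1 marker, 1002 at P1 and 667 at P60, were left out. The whole list of 8 perineurial markers summed to 4795 to 4899 CPM against 81.5 to 89.5 CPM at P60, and to 753 to 833 CPM against 93.9 to 98.5 CPM at P1, where Kcnj13 and Ntn4 were at 0 in the cells with markers. The P1 cells were therefore selected by weaker marker expression than the P60 cells. The P1 arms also lay in different clusters, with 68.2% of the cells with markers but 14.7% of those without in the fibroblast cluster that had no subtype, the group with the highest Slc16a1 of P1.

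At P60, 8 of the 10 transporters differed between cells with and without the markers, 7 higher and 1 lower, against 64.7% of the 12876 genes tested (32.3% higher and 32.5% lower). The background is high, so the sizes rather than the count carry the comparison. Slc2a1 was at 1170, 1130 and 993 CPM against 29.4, 28.3 and 20.8 CPM (5.30, SE 0.06), Slc16a1 at 656, 615 and 667 CPM against 24.2, 22.9 and 15.2 CPM (4.85, SE 0.09), Abcb1a at 157, 167 and 262 CPM against 13.6, 14 and 15.2 CPM (3.65, SE 0.09) and Abcg2 at 231, 240 and 186 CPM against 25.3, 26.5 and 24.5 CPM (3.03, SE 0.07). These 4 were past the threshold by wide margins, and the median log2 difference over the 10 was 1.07. Slc7a1 and Slco2b1 were each higher by 1.07. Slc7a5 was lower (-1.04, edgeR adjusted p = 0.00102), and Tfrc was higher by 1.08 (edgeR adjusted p = 0.0159), a call lost without P60 replicate 3. Mfsd2a (0.14) and Slco1a4 (-0.13) did not pass. Mural markers summed to 2648 to 3348 CPM in the cells with perineurial markers and 178 to 194 CPM in the others, and endothelial markers to 253 to 286 against 138 CPM. The 6 skeletal muscle markers summed to 203 to 228 against 4.52 to 7.88 CPM, with Ckm, Myh4, Myod1 and Pax7 at 0 in the cells with perineurial markers. Their part in the result was not tested.

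At P1, Slc16a1 and Slc2a1 were higher in the cells with perineurial markers, 2 of the 6 members tested against 10.5% of 12401 genes (4.52% higher). Slc16a1 was at 226, 229 and 228 CPM against 58.7, 52.6 and 59.8 CPM (1.90, SE 0.13). Slc2a1 was at 47.5, 18.2 and 39.4 CPM against 11.6, 12.2 and 11.8 CPM (1.54, SE 0.32, edgeR adjusted p = 3.26e-05), and it did not pass without P1 replicate 1 (1.23, edgeR adjusted p = 0.0759). Abcg2 was at 28.5, 36.4 and 33.8 CPM against 39.5, 35.6 and 34.0 CPM and was not called (-0.26). Abcb1a had 0 UMIs in the P1 cells with markers. Of the 4 genes that were far higher in these cells at P60, the fuel carriers were thus already higher at P1. Abcg2 in cells with markers was at 0.893 times its level in the others at P1, against 8.72 times at P60. The P1 value rested on 34 UMIs, with a counting interval of 0.616 to 1.25 that lay far below the P60 value. For Abcb1a the depth of 132 cells allowed at most 5.02 times at P1, against 13.4 times at P60. A smaller excess of Abcb1a at P1 could not be seen at that depth.

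The perineurial difference was larger at P60 than at P1 for 4 of 10 members by the interaction with age, against 22.5% of 13979 genes (12.4% higher). The excess on the log2 scale was 3.72 for Slc2a1 (SE 0.20), 3.27 for Abcg2 (SE 0.20) and 2.92 for Slc16a1 (SE 0.13). For Abcb1a, set to 3 UMIs in the P1 cells with markers in all 3 libraries together, the excess was at least 1.42, and its call was lost without P1 replicate 1 (edgeR adjusted p = 0.172). The interaction sets P1 cells selected by weaker marker expression against P60 cells selected by stronger, and the part of this was not tested.

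Outside the endothelium and the perineurium the levels of most members were lower. Abcb1a, Abcg2 and Slc7a5 were highest in endothelial cells at both ages with no overlap of libraries. Slco1a4 and Slc7a1 were so at P60, while at P1 their endothelial ranges overlapped those of other cells (epineurial and mural cells for Slco1a4, endoneurial cells for Slc7a1). Slc2a1 at P1 was highest in endothelial cells, followed by the fibroblasts without a subtype at 27.4 ± 2.70 CPM (SD, n = 3). In the whole fibroblast class, which holds the perineurial cells of P60, all 10 were called, against 59.3% of genes, and 9 were higher at P60 (30.8% of genes). The epineurial and endoneurial subtypes, which exclude the perineurial clusters, gave 6 of 8 and 3 of 6 members tested, against 47.2% of genes in both. In epineurial cells Slc2a1 went from 4.66 ± 0.332 to 23.2 ± 3.97 CPM (2.30, SE 0.20) and Abcb1a from 1.48 ± 1.24 to 16 ± 0.188 CPM (3.46, SE 0.34), and Slco1a4, Slco2b1 and Slc7a1 were also higher. The epineurial level of Slc2a1 at P60 was 2.15% of the endothelial and 2.13% of the perineurial level, beside medians of 1.16% for the endothelial markers and 1.42% for the perineurial markers in the same cells. Abcb1a was there at 2.54% of its endothelial and 8.13% of its perineurial level. Slco1a4 was at 0.53%, Slco2b1 at 29.2% and Slc7a1 at 5.27% of their endothelial levels. Abcg2 fell from 40.3 ± 3.47 to 23.7 ± 2.47 CPM. Endoneurial cells, the fibroblasts between axons, were the subtype in which Slc16a1 fell, from 68.0 ± 1.62 to 9.97 ± 2.44 CPM (-2.67, SE 0.20, edgeR adjusted p = 1.84e-07), while Slco2b1 rose from 1.98 ± 0.498 to 28.2 ± 6.39 CPM. This subtype joined several clusters at P1 and was a single cluster at P60, and the part of this make-up in its differences was not tested. Slc2a1 in endoneurial cells was at 14.8 ± 1.54 CPM at P1 and 28.2 ± 2.43 CPM at P60 (1.03, SE 0.18), a call lost after thinning (0.45, edgeR adjusted p = 0.243). Its P60 level there was 2.60% of the endothelial and 2.58% of the perineurial level, beside marker medians of 1.2% and 1.49%. Single markers ranged widely around these medians, the perineurial ones in endoneurial cells from 1.22% to 41.7%. The part of carried RNA in the P60 level of Slc2a1 was not tested in endoneurial, epineurial, mural or immune cells, nor in the P60 levels of the other members called higher in epineurial cells. These levels are therefore not read as expression of their own. At P1 the level of Slc16a1 was highest in the fibroblasts without a subtype, at 159 ± 18.9 CPM.

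In Schwann cells 6 of 9 members tested were called, all higher at P60, against 47.2% of genes (25.3% higher). Slc16a1, whose product in Schwann cells is known for lactate exchange with axons, rose from 26 ± 2.77 to 91.0 ± 7.05 CPM (1.74, SE 0.17), a call lost after thinning (0.47, edgeR adjusted p = 0.268), and Slc2a1 from 17.6 ± 0.437 to 135 ± 42.6 CPM (2.84, SE 0.21). Mfsd2a in Schwann cells was at 15.8 ± 1.22 CPM at P1, above the 3.90 ± 1.90 CPM of the P1 endothelium with no overlap of libraries, and at 34.0 ± 11.9 CPM at P60. Abcb1a was at 171 times its P1 level, with 35 against 3 UMIs and a counting interval of 53.8 to 867. The 8 perineurial markers were found in P60 Schwann cells at a median of 14% of their perineurial level (range 9.67% to 27.7%), and Slc2a1 was there at 12.4%, Abcb1a at 12.9%, Slc16a1 at 14.3% and Abcg2 at 23.0% of theirs. In the other P60 classes the median of these markers was 1.42% to 2.83%. Each of the 4 transporters in Schwann cells thus stood within the range that perineurial markers reached there, and the part of carried perineurial RNA was not tested.

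Immune cells were the class with the highest Slco2b1 at P1, at 57.6 ± 8.37 CPM, and at P60 their 73.7 ± 18.7 CPM overlapped the 71.9 ± 6.09 CPM of endothelial cells. Tfrc was highest in immune cells at P60 as well, at 22.2 ± 13.7 CPM from 4.39 ± 3.03 CPM (2.41). There 5 of 8 members tested were called, all higher, against 37.6% of genes (20.4% higher), and Slc2a1 was at 38.3 ± 11.5 CPM at P60, which is 3.54% of its endothelial and 3.51% of its perineurial level, beside marker medians of 1.87% and 2.79%. In mural cells 2 members were tested and called, against 33.1% of genes. Slc2a1 was at 5.88 ± 4.33 CPM at P1 and 29.6 ± 4.33 CPM at P60, the latter 2.73% of its endothelial level, beside medians of 2.74% for the endothelial and 1.95% for the perineurial markers. Abcg2 was at 89.2 ± 5.59 and 53.4 ± 12.5 CPM (-0.65, edgeR adjusted p = 0.0218), a call lost without P1 replicate 2, P1 replicate 3 or P60 replicate 1 (edgeR adjusted p = 0.0759, 0.0817 and 0.0590), with DESeq2 and after thinning. Slco1a4 in the other classes of P60 stood at 0.23% to 0.83% of its endothelial level, while the 9 endothelial markers stood at medians of 1.16% to 3.64% there. The mixed clusters of P60, which are not among these classes, held Slco1a4 at 202 CPM.

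Whether the age difference was larger in endothelial cells than elsewhere was tested as the endothelial change against the mean change of the fibroblast, mural, Schwann and immune classes. It was called for 7 of the 10, against 23.7% of 13934 genes. The endothelial change was larger for Slco1a4 (3.33), Slc7a1 (2.87), Slc7a5 (2.56), Tfrc (1.90) and Abcg2 (1.60), and smaller for Abcb1a (-1.36) and Slco2b1 (-1.28). Of these, Slco1a4 rested on 4, 1 and 1 P1 UMIs in Schwann, immune and mural cells and lost its call without any one P1 library (edgeR adjusted p from 0.0709 to 1). Tfrc was at 1.05 without P1 replicate 1 (edgeR adjusted p = 0.381) and also lost its call without P1 replicate 3 or P60 replicate 2. Abcb1a rested on 3 and 1 P1 UMIs in Schwann and immune cells and lost its call without P1 replicate 3 or P60 replicate 2. Slc2a1 had 0.46 (edgeR adjusted p = 0.0661) and Slc16a1 0.19, and neither passed. For Mfsd2a no value could be estimated because mural cells held 0 UMIs at P1. Without P1 replicate 3 the count of members called was 4. The fibroblast class in the mean holds perineurial clusters at P60 only, so its make-up differs between the ages. Abcb1a at P60 was at 147 times its P1 level in that class and at 14.4 times in endothelial cells. In the epineurial subtype it was at 11.5 times and in the endoneurial subtype at 20.6 times, the latter from 3 P1 UMIs. The part of this make-up in the values was not tested.

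The transporters were set beside longer lists of carriers of the same kinds. In the endothelium, P60 against P1, where 40.0% of all genes were called and 21.1% were higher, 2 ABC transporters were higher and 1 lower of 10 tested, 3 amino acid carriers higher and 4 lower of 15, and 3 monocarboxylate carriers higher and 0 lower of 5. Among iron handling genes 4 were higher and 1 lower of 8, among organic anion and cation carriers 2 higher and 0 lower of 5, and among genes of receptor-mediated transport 5 higher and 0 lower of 8. Of the glucose carriers 2 were tested and 0 called. Several of these shares lie near that of all genes. Slc3a2, the heavy chain with which Slc7a5 forms its dimer, rose from 248 to 974 CPM (1.99), and Slc16a4, a relative of Slc16a1, rose from 18 to 158 CPM (3.14). Slco1c1, a thyroid hormone carrier, rose from 4.94 to 22.3 CPM (2.19). Slc38a3, a glutamine carrier, fell by 5.62 on the log2 scale and Abca1, a cholesterol exporter, by 1.29. The size for Slc38a3 rests on 41 UMIs at P1 and 1 UMI at P60. Of the caveolar and diaphragm genes, 2 were higher and 1 lower of 6: Cav1, the coat protein of caveolae, fell from 2051 to 872 CPM (-1.22), and Plvap, the diaphragm protein of fenestrae and caveolae, rose from 317 to 612 CPM (0.97).

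Between the Cd300lg arms of P60, where 10.3% of all genes were called, the same lists gave higher Plvap in positive cells, at 1632 against 389 CPM (2.02), with 4 caveolar and diaphragm genes higher and 1 lower of 6. Slco2a1, a prostaglandin carrier (1.19), and Scarb1, a lipoprotein receptor (1.06), were higher too. Slc3a2 (-0.84), Slc16a4 (-1.67), Slco1c1 (-3.27) and the zinc and iron carrier Slc39a8 (-1.36) were lower. Among monocarboxylate carriers 3 of 5 tested were lower and 0 higher, whereas Slc16a1 was higher. In cells with perineurial markers at P60, where 64.7% of all genes were called, Slc7a2, another cationic amino acid carrier, was at 193 against 7.18 CPM (4.63), Slco2a1 at 158 against 5.62 CPM (4.67) and Slc16a4 was higher by 3.18, whereas the iron exporter Slc40a1 (-3.13) and the glutamate carrier Slc1a3 (-4.21) were lower.

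Across the 42 profiles of class by library, the genes whose levels ran most like those of a transporter were named as a description with no test, since the profiles share libraries and cells. Slco1a4 ran most like Degs2 (Pearson r = 0.990), Lef1 (0.951) and Gbp4 (0.948). Slc2a1 ran most like Fam107a (0.941), the member Abcb1a (0.938) and Slco2a1 (0.925), and Fam107a was also first for Abcb1a (0.954). Slc16a1 ran most like Ntng1 (0.943), and Tfrc had the lowest best match, Herc4 at 0.833. Degs2 and Slco1a4 were both among the 3 genes nearest to Slc7a1 and to Mfsd2a.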

How the data were processed

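Single cells of sciatic nerve from P1 and P60 mice were sequenced in 3 libraries per age. The authors deposited raw UMI counts per gene and barcode for each library, which the submitters' processing notes credit to Cell Ranger 2.0.2 with the mouse build GRCm38.p5, with no normalization and no pooling of libraries. The study's methods name a human build, whereas the gene identifiers in the files are those of mouse genes. Empty droplets were not used here.

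Cells with 500 to 5000 genes were clustered per age in Seurat 5.3.0 (R 4.3.3) without the genes under study. No doublets were removed in the main values. A further marker list is not reported here. UMIs were summed per library and class, and tested with edgeR 4.0.16 (TMM scaling, quasi-likelihood test, Benjamini-Hochberg adjustment over all genes tested). Age was compared without a block, as the replicate numbers of P1 and P60 share only a number. The Cd300lg and perineurial divisions, made after thinning cells to 1500 UMIs, were compared within libraries, with the library as a block. Shares of cells were compared by exact permutation over libraries. Profiles for the likeness of genes were log CPM + 10. Alternatives used DESeq2 1.42.0, other scaling, filters, doublet removal with scanpy 1.11.5, depth thinning and leaving out each library. The members, lists and tests were chosen with earlier results of these data known. Named genes were the 10 members, for each longer list the called gene with the largest change in each direction, and the 3 genes most like each member. Intervals and floors (3 UMIs) cover counting error only. Counts were also simulated with the same spread between libraries for every gene, no library effect and few changed genes. The rates that follow hold for that setting and do not measure the tests on the real counts. On simulated counts the endothelial age test recovered 77.6% of genes changed 2-fold and 100% of genes changed 4-fold among 10861 genes, with 5.29% of its calls false. The Cd300lg division at P60 recovered 53.3% and 86.9% among 9776 genes (1.52% false), and the perineurial division at P1 28.4% and 73.1% among 12388 genes (3.74% false). Depth was 20203440 to 30334608 UMIs per library, so counts of a few UMIs, as for Tfrc, carry wide error.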

Additional observations from a re-analysis of the deposited data

Results flagged for a closer look

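Differences between groups under the same contrast were found for the following members. The endothelial age change against the mean of the fibroblast, mural, Schwann and immune classes was 3.33 on the log2 scale for Slco1a4, 2.87 for Slc7a1, 2.56 for Slc7a5, 1.90 for Tfrc and 1.60 for Abcg2, and it was -1.36 for Abcb1a and -1.28 for Slco2b1, each by edgeR's interaction term. The fibroblast class in that mean holds perineurial clusters at P60 only. The call for Slco1a4 was lost whichever P1 library was left out, that for Tfrc without P1 replicate 1, P1 replicate 3 or P60 replicate 2, with DESeq2, without predicted doublets and with the mixed clusters counted as endothelial, and that for Abcb1a without P1 replicate 3 or P60 replicate 2 and without predicted doublets. The difference between Cd300lg-positive and Cd300lg-negative endothelial cells was lower at P60 than at P1, with interaction values of -2.41 for Slc7a5, -1.98 for Abcb1a, -1.64 for Slc2a1 and -1.15 for Abcg2. The positive and negative cells of P1 differed less in Cd300lg itself than those of P60. The difference between cells with at least 2 perineurial markers and cells with none was larger at P60 than at P1 by 3.72 for Slc2a1, 3.27 for Abcg2 and 2.92 for Slc16a1, and by at least 1.42 for Abcb1a, whose P1 cells with markers held 0 UMIs. The cells with perineurial markers at P1 had weaker marker expression than those at P60.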

How the results depend on the processing

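Of 1867 values of called members and listed genes under the alternatives, 1791 kept direction and call, 76 lost the call and 0 changed direction. All 10 members stayed called in the endothelial age comparison whichever library was left out, and 8 were called after thinning or with 50 cells per library. Of all genes tested, 27.3% were called after thinning and 26.4% with 50 cells. For the Cd300lg division at P1 the number of members called was 0 with DESeq2, 3 with at least 2 Cd300lg UMIs, 3 with the division made on all UMIs and 0 to 1 with a library left out. Over all genes the share called was 2.72% in the main test and 1.07% with DESeq2. It was 8.53% with at least 2 Cd300lg UMIs and 6.52% on all UMIs. Drawing 50 cells per library left 1 call in Schwann, 1 in endoneurial, 0 in epineurial, 5 in fibroblast, 0 in immune and 0 in mural cells, and thinning left 2 in Schwann, 3 in immune and 0 in mural cells. With 50 cells, 36.1% of 3947 genes tested were called in Schwann, 36.1% of 3960 in endoneurial and 25.4% of 4144 in epineurial cells. In fibroblast, immune and mural cells it was 31.3% of 4623, 16.5% of 3932 and 25.3% of 3421. Of the members, only Abcg2 lost its call there while still tested, in epineurial and mural cells. The others failed the count filter. Thinning gave 38.8% of genes in Schwann, 25.6% in immune and 28.8% in mural cells. Without the low-count filter 5 were called in endoneurial and 5 in mural cells, against 30.8% and 21% of genes, and DESeq2 called 1 in mural cells, against 23.7%. The endothelial change against the other classes gave 4 to 8 calls with a library left out, the perineurial division at P1 gave 1 to 2, and its interaction with age gave 7 with the division made on all UMIs.

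The same-numbered libraries of P1 and P60 had correlated deviations of only 0.0514, 0.074 and 0.0345. A replicate block left 10 members called in endothelial and fibroblast cells, 6 in Schwann, 6 in epineurial, 6 in immune, 3 in endoneurial and 2 in mural cells. Without the library block the Cd300lg division gave 7 calls at P60, 1 at P1 and 4 in the interaction, and the perineurial division 7, 2 and 4. Over all genes the Cd300lg division at P60 gave 1014 calls in the main test, 426 with DESeq2 and 381 without the block. The perineurial division at P60 gave 8335, 6055 and 5505, and the endothelial age comparison 4363, against 1295 with 50 cells per library. With library size alone as the scaling, 69.4% in place of 58.2% of calls were higher in the Cd300lg interaction and 55.3% in place of 43.0% in the perineurial division at P1, and the median of all genes was 0.119 in Schwann and -0.151 in endoneurial cells.

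Members that did not pass changed direction as follows, the cause not being tested. In the Cd300lg interaction, leaving out a library gave -1.54 to 0.17 for Mfsd2a, -1.66 to 3.54 for Slco1a4 and -0.25 to 0.19 for Slco2b1, Slco1a4 was at 0.92 with at least 2 Cd300lg UMIs and 0.91 on all UMIs, and Slco2b1 at 0.0022 with library size alone. At P1 on all UMIs Slc7a1 was at 0.18. In the perineurial division, leaving out a library gave -0.0921 to 0.28 for Mfsd2a at P60, and at P1 -0.15 to 0.98 for Slc7a1, -0.32 to 0.62 for Slc7a5 and -1.08 to 1.27 for Slco2b1. In its interaction DESeq2 gave -0.72 for Mfsd2a and -2.44 for Slco1a4, and leaving out a library -0.19 to 2.12 for Slco2b1. Slc16a1 was at -0.49 with cells scaled to 100000, -0.36 with members kept in the clustering and -0.13 thinned in epineurial cells, and against the other classes at -0.13 scaled to 100000 and -0.39 to 0.62 with a library left out. Slc7a5 in Schwann cells was at -0.0096 scaled to 100000 and -0.0066 unfiltered, and -0.43 to 0.31 with a library left out, in endoneurial cells at -0.55 thinned and -0.0582 to 0.46, and in epineurial cells at 0.0202 by library size, 0.0135 unfiltered and -0.11 to 0.11. Tfrc in Schwann cells was at -0.14 to 0.86. The division by at least 3 perineurial markers was not run at P1, where 6 cells had them.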
